A study of Oryctolagus cuniculus with 12 samples.

Results

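INMT, indolethylamine N-methyltransferase, was described across the arrays of rabbit thoracic aorta. Its members were all probes whose RefSeq accession maps to the rabbit symbol INMT, which gave 1 gene of 1264 named on the array and 1 probe (A_04_P003266, accession NM_001082043) of 43603, printed as 1 spot per array. A gene symbol could be given to 3368 of these probes (7.72%), so most of the transcripts on the array could not be compared with INMT by name. The gene was chosen for its high signal in the CoA and Corrected groups, and its differences from Control are therefore given as a description with no test.

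RNA was measured in 12 male New Zealand white rabbits at 32 weeks of age, 4 to a group (Control, CoA or Corrected), with 1 single-colour Agilent array per rabbit. CoA rabbits received a permanent silk suture around the descending aorta at about 10 weeks of age, set to a gradient of 20 mmHg, and kept the coarctation. Corrected rabbits received the same narrowing with a degradable Vicryl suture, which left a modest residual narrowing after it dissolved. Control rabbits were not operated on, and with no sham operation the surgery and the narrowing cannot be told apart in either comparison with Control. The tissue was a 4 mm ring from above the coarctation, so fewer cells of a type and less RNA per cell cannot be told apart.

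INMT moves a methyl group from S-adenosylmethionine to the nitrogen of indolamines such as tryptamine, and it also methylates thioethers and selenium compounds. It belongs to a small family with NNMT, which methylates nicotinamide, and PNMT, which makes adrenaline from noradrenaline. The rabbit enzyme was first studied in lung, a tissue in which it is abundant.

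Corrected replicate 3 was excluded from the analysis by the submitters, per its label, and is outside the group values below, which leaves 11 arrays. On that array 45.6% of spots were well above background. The share was 69.7% to 77.7% on the Control arrays, 55.8% to 69.7% on the CoA arrays and 61.8% to 68.5% on the other Corrected arrays, so that every Control array lay above every operated array, although narrowly above CoA replicate 2, and its part in the INMT difference was not tested. CoA replicate 2 and Corrected replicate 4 were the dimmest of the 11 arrays, with a 75th percentile of the processed signal of 114 and 164, where the others ranged upward from 258. Control replicates 3 and 4 were more alike than any other pair, with a robust SD of their log2 differences of 0.153 over 12038 bright probes, where other pairs ranged from 0.300 to 1.07. Control replicate 3 was scanned alone, on another day than all other arrays. Whether replicates 3 and 4 came from separate rabbits, as their labels have it, was not tested. Smooth muscle genes expected in aorta, including MYH11 (smooth muscle myosin heavy chain), ACTA2 (smooth muscle actin) and CALD1 (caldesmon), were detected on 12 of 12 arrays.

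INMT signal was higher in every CoA and Corrected rabbit than in any Control rabbit. On the quantile normalized log2 scale, the Control arrays 1 to 4 read 11.20, 13.34, 12.002 and 11.18. The CoA arrays 1 to 4 read 15.45, 14.37, 14.86 and 14.40. The Corrected arrays 1, 2 and 4 read 14.31, 15.06 and 15.13. Control replicate 2 was the highest of its group and lay closest to the operated rabbits, while the CoA and Corrected arrays covered nearly the same range.

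**Figure D1:**
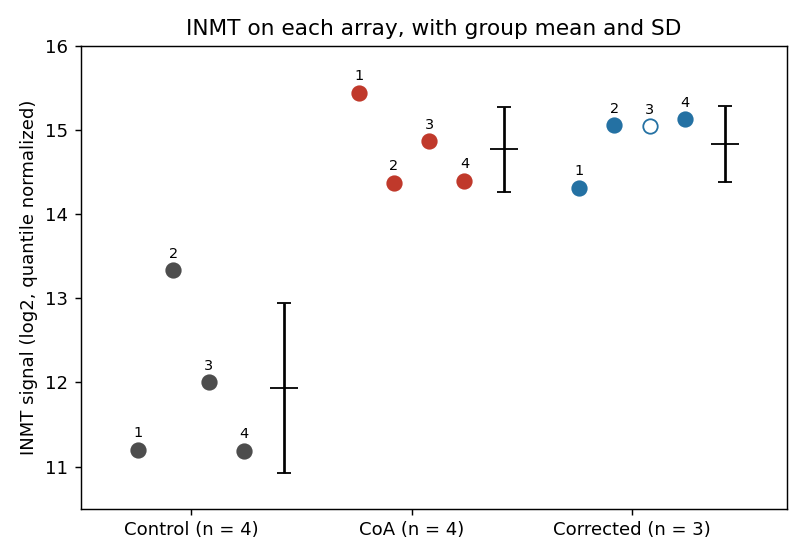
INMT signal on each array (log2, quantile normalized) by group, with replicate numbers, and the mean and SD of each group as a bar. The open circle is Corrected replicate 3, which is outside the mean. The Control arrays lie between 11.18 and 13.34 and all CoA and Corrected arrays at 14.31 or above.

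The Control mean was 11.93 ± 1.01 (SD, n = 4). CoA arrays averaged 14.77 ± 0.50 (SD, n = 4), and the mean of the Corrected arrays was 14.83 ± 0.45 (SD, n = 3). INMT was therefore 2.84 log2 units higher in CoA vs Control (SE 0.48 from limma), a fold change (FC) of 7.16, and 2.90 higher in Corrected vs Control (SE 0.51), a FC of 7.47. Both comparisons share the Control arrays. The gap between the highest Control array and the lowest CoA array was 1.03 log2 units, and to the lowest Corrected array 0.98. Over all 28 pairings of an operated rabbit with a Control rabbit, INMT was higher in the operated rabbit in 28, by 1.97- to 19.2-fold. Of all probes tested, 6.87% had every CoA array above every Control array and 5.25% every Corrected array above every Control array.

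CoA vs Corrected differed by -0.06 log2 units (SE 0.51) and the groups overlapped. In order of mean signal the groups ran Corrected, CoA and Control, and the first 2 did not differ beyond their spread. Among the 27282 probes detected on at least 8 of 12 arrays, 53 (0.194%) rose at least as far as INMT in CoA vs Control and 14 (0.0513%) did in Corrected vs Control. These shares place INMT among the probes and support nothing further, because INMT was chosen on the same contrasts.

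The INMT spot was far from the background on every array. Before normalization between arrays, the processed signal was 4396, 11575, 4954 and 2097 on the Control arrays 1 to 4. It was 41147, 17204, 32455 and 25279 on the CoA arrays 1 to 4. It was 32512, 43159 and 28124 on the Corrected arrays 1, 2 and 4. The lowest operated array, CoA replicate 2, was one of the dimmest arrays and still lay above the highest Control array. The local background was between 17 and 27 on the 12 arrays, and no INMT spot was saturated or carried an outlier flag.

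**Figure D2:**
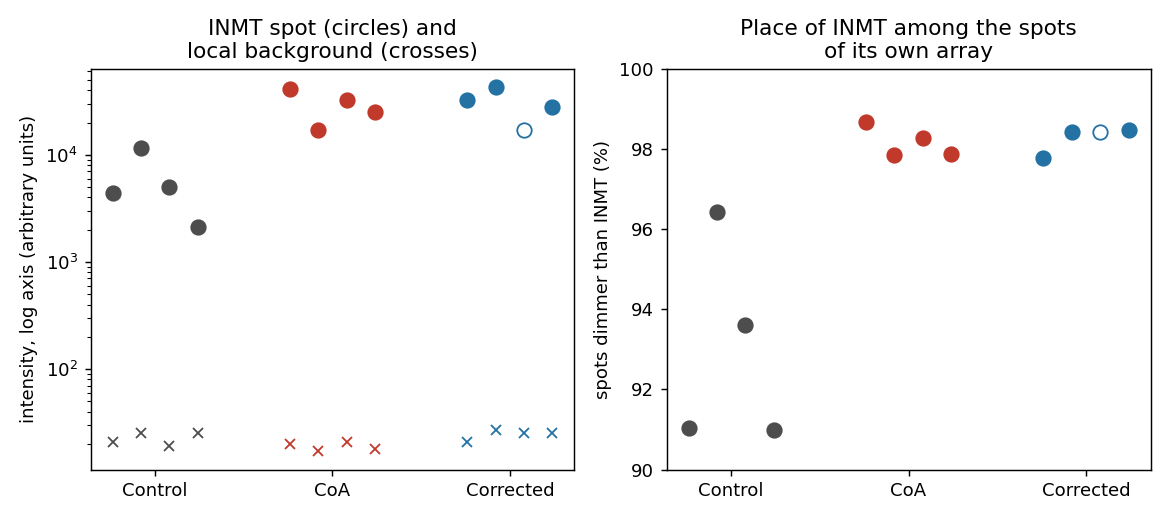
Left, processed signal of the INMT spot (circles) and its local background (crosses) on each array, on a log axis. Right, the percent of spots dimmer than INMT on the same array. Open circles mark Corrected replicate 3. INMT outshone 91.0% to 96.4% of spots on Control arrays and 97.8% to 98.7% on CoA arrays.

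The place of INMT among the spots of its own array needs no scaling between arrays. INMT was brighter than 91.0% to 96.4% of spots on Control arrays, 97.8% to 98.7% on CoA arrays and 97.8% to 98.5% on Corrected arrays. Without normalization between arrays the differences were 2.53 log2 units (5.76-fold) in CoA and 2.83 (7.10-fold) in Corrected rabbits, each against Control.

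The arrays were scanned in 4 sets with a common scan time, and these sets stand for the slides in the fits below. Whether each set was 1 physical slide was not tested. All CoA arrays formed a set of their own, and for CoA the scan set cannot be told apart from the group. Corrected replicates 1, 3 and 4 shared a set that held no Control array, and Control replicate 3 was alone in its set. Corrected and Control can thus be compared within a scan set through 1 Corrected array only. Corrected replicate 2 was scanned with Control replicates 1, 2 and 4. Within that set INMT was 3.15 log2 units higher on the Corrected array than the mean of the 3 Control arrays (1.72 to 3.87 over the single arrays). Control replicates 3 and 4, alike for most probes, differed by 0.82 log2 units for INMT, and 4.13% of probes differed by as much between them. For comparison, probes printed 5 times with a mean log2 signal above 10 had a median SD of 0.0606 log2 units between their spots on an array.

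Lung genes were examined because the ring lies in the chest and INMT is abundant in lung. Of 11 lung epithelial genes, 5 had a named probe and 4 were tested, and 0 moved past 2-fold (unadjusted p under 0.05 in limma) in any comparison. SFTPC, a surfactant protein made by alveolar cells, was not detected on any array. SFTPA1, another surfactant gene, was bright in all groups, with a mean of 16.54 in Control, 16.42 in CoA and 16.45 in Corrected. SFTPB, a further surfactant gene, differed by -0.84 log2 units in CoA vs Control (SE 0.32, limma adjusted p = 0.303), with no overlap, and by -0.56 in Corrected vs Control (SE 0.35). The other members had positive differences, as INMT did. SCGB1A1, a secreted protein of club cells, differed by 1.28 (SE 0.75, limma adjusted p = 0.444) and 1.09 (SE 0.81), and CYP4B1, a cytochrome P450 of lung, by 0.99 (SE 0.42, limma adjusted p = 0.331) and 0.62 (SE 0.45). The summed lung signal was 16.20 to 16.83 in Control, 16.31 to 16.66 in CoA and 16.36 to 16.79 in Corrected on the log2 scale, a range carried almost wholly by SFTPA1. The part of the lung genes in the INMT difference was not tested.

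Other marker lists moved with the groups. The summed signal of the adipocyte list (4 of 9 genes tested) was 12.22 to 13.83 in Control, 8.95 to 12.001 in CoA and 10.94 to 13.17 in Corrected. PPARG, a regulator of fat cells, differed most in CoA vs Control, by -3.17 log2 units (SE 0.89, adjusted p = 0.243 in limma). ADIPOQ differed by -2.99 (SE 0.98) and LPL, the brightest member by its mean, by -1.49 (SE 0.74), both with overlap. LEP had a small positive difference of 0.17 (SE 0.31). The cardiac muscle list (4 of 10 tested) ran opposite to the adipocyte sum, with 11.27 to 12.61 in Control, 13.15 to 16.66 in CoA and 12.95 to 14.20 in Corrected. The skeletal muscle list (6 of 11 tested) also did, with 8.89 to 10.38 in Control, 10.65 to 15.44 in CoA and 11.69 to 12.07 in Corrected, but its members did not move together. TNNC2, a fast muscle troponin C, was 3.12 log2 units higher in CoA vs Control (SE 0.87), and CKM, muscle creatine kinase, reached 13.28 on 1 CoA array, while MYH1 (-0.31), ATP2A1 (-0.80), TNNI2 (-0.97) and RYR1 (-0.45) had negative differences. The summed erythroid signal (2 of 8 tested) was 18.28 to 18.86 in Control, 15.00 to 17.90 in CoA and 17.81 to 18.62 in Corrected. In CoA vs Control, 2 adipocyte genes and 2 erythroid genes were lower and 2 cardiac genes and 1 skeletal muscle gene were higher past 2-fold with an unadjusted p under 0.05, beside 8.81% of all probes tested. In Corrected vs Control, 1 adipocyte gene was lower, and 1 cardiac and 2 skeletal muscle genes were higher, beside 5.39% of all probes. In CoA vs Corrected, 2 skeletal muscle genes (MYH1 and ATP2A1) and 1 erythroid gene (HBA) were lower, beside 2.77%.

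The brown adipocyte list (1 of 5 genes tested) had a summed signal of 5.72 to 7.69 in Control, 4.66 to 5.63 in CoA and 5.13 to 5.50 in Corrected. UCP1, its defining marker, was detected on all 4 Control arrays, on 1 of the 4 from CoA and on 2 of the 3 from Corrected rabbits. NPY, the 1 nerve gene of 8 tested, was higher by 2.72 log2 units in CoA vs Control (SE 0.56) and by 1.49 in Corrected vs Control (SE 0.60). Of T cell and thymus genes (2 of 11 tested), CD5 was lower and RAG2 higher in CoA vs Control, and CD5 lower in Corrected vs Control. These calls stand beside 8.81% and 5.39% of all probes past 2-fold with an unadjusted p under 0.05. The summed signal of this list was 8.71 to 9.08 in Control, 6.74 to 8.91 in CoA and 6.59 to 7.16 in Corrected. Among members detected on too few arrays to be tested, CD3E averaged 5.74 in Control, 3.29 in CoA and 2.54 in Corrected. CD247 averaged 6.18, 3.99 and 3.73, and CD4 3.77, 4.07 and 3.65. In the smooth muscle (4 of 9 tested), endothelium (2 of 9), fibroblast (4 of 10) and macrophage (1 of 7) lists 0 genes passed in these comparisons. The part of any of these lists in the INMT difference was not tested.

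The closest relatives of INMT could not be followed, since neither NNMT nor PNMT had a named probe. Of 112 symbols in 4 lists of related genes, 20 had a named probe and 13 were tested. Most of these 13 were selenium and thiol genes (8). The rest were 2 genes of methyl supply, 2 of the tryptophan, serotonin and indolamine list and 1 small-molecule methyltransferase. In CoA vs Control 0 were higher and 2 were lower past 2-fold with an unadjusted p under 0.05 (SHMT1 and WARS1), or 15.4% of 13 genes, beside 8.81% of all probes tested (3.59% higher and 5.22% lower). The split of all probes turned with the scaling, from 979 higher and 1425 lower to 1529 higher and 1221 lower with 75th percentile scaling. In Corrected vs Control 0 were higher and 1 was lower (SHMT1), or 7.69%, beside 5.39% of all probes (2.41% higher and 2.98% lower). In CoA vs Corrected 0 passed, beside 2.77% of all probes. The median difference of the 13 genes was -0.48, -0.08 and -0.33 log2 units in these comparisons, where all probes had 0.06, 0.03 and 0.02.

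None of the related genes passed a Benjamini-Hochberg adjustment in limma over the 11 arrays, which left adjusted p of at least 0.266, 0.569 and 1.00 in the order above. Unadjusted, 2, 1 and 0 of them had a p under 0.05. Over all 27282 probes, 0 also passed adjustment in each comparison of this fit, while 3877 (14.2%), 2278 (8.35%) and 1175 (4.31%) had an unadjusted p under 0.05. These adjusted calls depended on the model. With array weights over all 12 arrays, limma gave an adjusted p of 0.000473 for SHMT1 and 0.00243 for WARS1 in CoA vs Control. In that fit 11050 of all probes passed adjustment. With slide as a random block 869 did, and limma gave an adjusted p of 0.0546 for SHMT1 and 0.0849 for WARS1. The correlation within slides estimated for this block was negative, at -0.148. The SE of SHMT1 in CoA vs Control was 0.50 with the block and 0.66 in the main fit. The block of the CoA arrays held no other array, so these 869 calls do not show a difference apart from slide. Exact permutation of the arrays cannot give a p below 0.0286 for groups of this size.

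**Figure D3:**
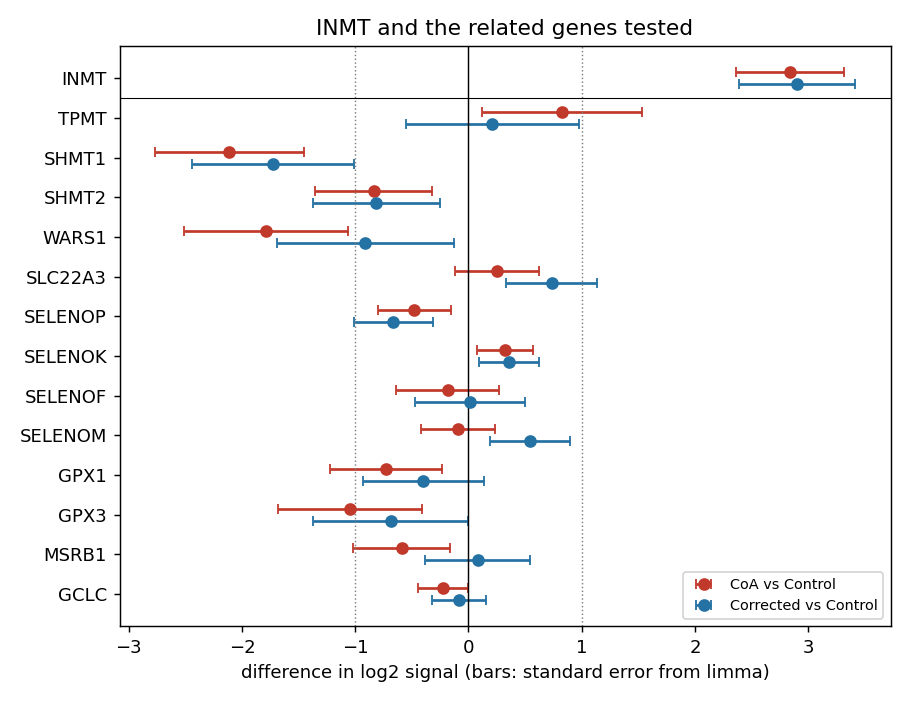
Difference in log2 signal from Control for INMT (above the line) and the 13 related genes tested, with standard errors from limma. Dotted lines mark 2-fold. INMT lies near 2.84 and 2.90, and SHMT1 near -2.11 and -1.73.

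Among genes of methyl supply, SHMT1 was lower where INMT was higher. SHMT1 is the cytosolic serine hydroxymethyltransferase, which passes a carbon unit from serine to folate. Its signal was 12.22, 10.48, 11.92 and 11.88 on the Control arrays 1 to 4. It was 8.08, 10.33, 10.30 and 9.35 on the CoA arrays 1 to 4. It was 11.45, 9.26 and 8.98 on the Corrected arrays 1, 2 and 4. All CoA arrays lay below all Control arrays, by a gap of 0.16 (3.37% of all probes were separated this way), while Corrected replicate 1 lay within the Control range.

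SHMT1 differed by -2.11 log2 units in CoA vs Control (SE 0.66, limma adjusted p = 0.266, exact permutation p = 0.0286). In Corrected vs Control it differed by -1.73 (SE 0.71, limma adjusted p = 0.569, exact permutation p = 0.0857). All 5 SHMT1 probes passed 2-fold in both comparisons, from -2.14 to -2.01 and from -1.83 to -1.66. The Corrected difference rested on single arrays, since without Corrected replicate 4 it was -1.27 and without Corrected replicate 2 it was -1.48, both with an unadjusted p above 0.05 in limma. Without Corrected replicate 1 it was larger, at -2.51. The Corrected difference also missed that threshold without Control replicate 1 (-1.53), 3 (-1.63) or 4 (-1.64). SHMT2, the mitochondrial enzyme, differed by -0.84 in CoA vs Control (SE 0.52, limma adjusted p = 0.469).

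WARS1, the cytosolic tryptophan-tRNA ligase, was 8.90, 5.29, 7.14 and 7.40 on the Control arrays 1 to 4. It was 5.59, 5.15, 5.81 and 5.05 on the CoA arrays and 7.86, 5.78 and 5.19 on the Corrected arrays 1, 2 and 4. Control replicate 2 lay among the CoA arrays, so the groups overlapped. The difference for CoA vs Control was -1.79 (SE 0.73, limma adjusted p = 0.320, exact permutation p = 0.0857), and its second probe gave -1.08. In Corrected vs Control the difference was -0.91 (SE 0.78), while the second probe went the other way, at 0.25. The CoA difference missed the threshold without Control replicate 1 (-1.21), 3 (-1.80) or 4 (-1.71), or without CoA replicate 2 (-1.70) or 4 (-1.67).

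The other related genes tested differed less. TPMT, which methylates thiopurines, was 0.82 log2 units higher in CoA vs Control (SE 0.71, limma adjusted p = 0.601), a value set by CoA replicate 4 at 8.68 where the other CoA arrays were 4.72 to 5.87. SLC22A3, an organic cation transporter that carries monoamines, differed by 0.25 (SE 0.37) in CoA vs Control and 0.73 (SE 0.40) in Corrected vs Control. Its 4 probes did not move together, with -0.64 to 0.25 in CoA vs Control and 0.73 to 1.08 in Corrected vs Control. In CoA vs Corrected they ranged from -1.72 to -0.48. Of the 4, 1 passed 2-fold with an unadjusted p under 0.05 in limma in each comparison with Corrected. The 8 selenium and thiol genes tested ranged from -1.04 for GPX3, the plasma glutathione peroxidase, to 0.33 for SELENOK in CoA vs Control. TPH1, HTR1A, HTR1B, HTR1D, SLC22A2 and CBS were among the related genes detected on too few arrays to be tested.

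The named genes whose signal followed that of INMT were ranked by Pearson's r over the 11 arrays, among 957 symbols. These r have no p, since the arrays share groups and scan sets and the genes were picked for their r. STEAP1, a protein of the cell membrane, had the highest r at 0.89. It was followed by PTGS2 (cyclooxygenase 2, 0.88), HGF (hepatocyte growth factor, 0.85), PAPSS2 (an enzyme of sulfate activation, 0.85) and PSMG1 (a proteasome assembly chaperone, 0.84). CALD1 (0.83), GRO-A (a neutrophil chemokine, 0.82), HAS2 (hyaluronan synthase, 0.82), SCNN1B (a sodium channel subunit, 0.81) and JPH1 (a junctophilin, 0.81) completed the 10, and the next symbol, CAMK2D, had 0.80. HAS2 was dim, with a mean of 3.67 in Control, 4.36 in CoA and 4.39 in Corrected, and was detected on 10 of 12 arrays. Over all other probes tested the median r was 0.08, and 43 had an r above 0.9.

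**Figure D4:**
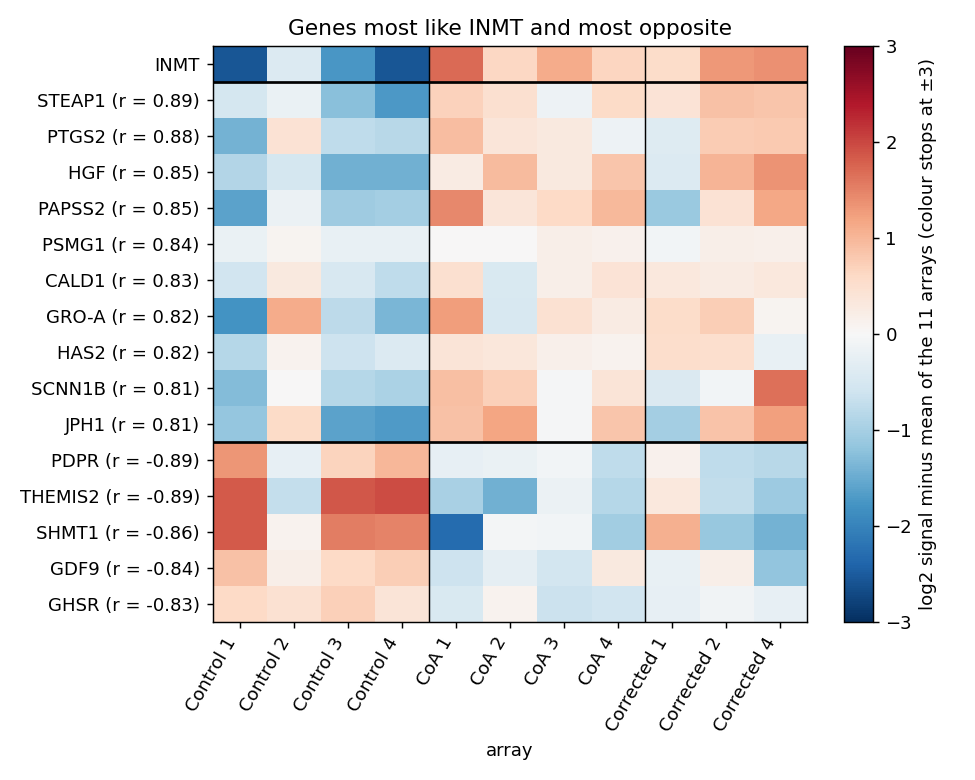
Log2 signal of INMT, the 10 most similar and the 5 most opposite named genes on each of the 11 arrays, as the distance from the mean of each gene. Columns are arrays and colours log2 units. For INMT, Control replicates 1, 3 and 4 stand against the CoA and Corrected arrays, and Control replicate 2 lies between. Most of the other genes depart from this. Control replicate 2 lies within the operated range for all of them but STEAP1, HGF and GHSR. Corrected replicate 1 lies within the Control range for PTGS2, PAPSS2, PSMG1, GRO-A, SCNN1B, JPH1, PDPR, THEMIS2 and SHMT1.

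The 10 genes differed in how far they moved. STEAP1 was 12.13, 12.46, 11.42 and 10.94 on the Control arrays 1 to 4. It was 13.35, 13.14, 12.52 and 13.23 on the CoA arrays and 13.07, 13.53 and 13.50 on the Corrected arrays 1, 2 and 4. Like INMT, it did not overlap between Control and either operated group, but the lowest CoA array (12.52) lay just above the highest Control array (12.46). It was 2.50-fold higher in CoA vs Control and 3.10-fold higher in Corrected vs Control. HGF did not overlap either, at 3.13- and 3.29-fold, but its lowest Corrected array (6.43) lay just above the highest Control array (6.32). Of all probes tested, 6.87% had every CoA array and 5.25% every Corrected array above every Control array. Both genes were picked for their r with INMT. PSMG1 followed the order of the arrays within a narrow range, with a FC of 1.16 and 1.17.

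PTGS2 followed INMT among the rabbits of a group as well as between groups. It was 10.85, 12.71, 11.52 and 11.46 on the Control arrays 1 to 4. It was 13.22, 12.64, 12.57 and 12.14 on the CoA arrays and 11.90, 13.04 and 13.06 on the Corrected arrays 1, 2 and 4. Control replicate 2 and CoA replicate 1, the highest of their groups for INMT, were the highest for PTGS2 too. With each array set against its group mean, r was 0.90 for PTGS2, 0.89 for GRO-A, 0.85 for NLK, a serine/threonine kinase, and 0.83 for HLTF, a helicase-like factor. NLK and HLTF followed INMT much less over all arrays, with r of 0.46 and 0.42.

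**Figure D5:**
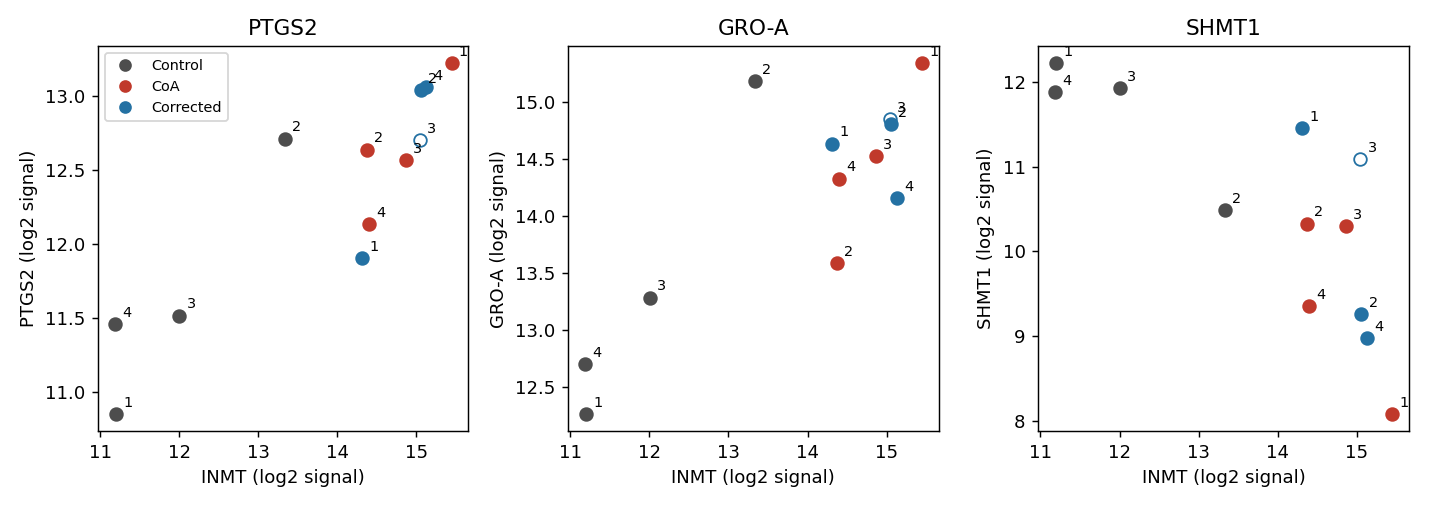
Log2 signal of PTGS2, GRO-A and SHMT1 against INMT on each array, with replicate numbers. Colours mark groups and the open circle Corrected replicate 3, which is outside the r. Over the 11 arrays r was 0.88, 0.82 and -0.86.

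The r of several genes rested on the distance between groups. Without Control replicates 1 and 4, the arrays farthest from the median of INMT, r over the other 9 arrays was 0.89 for STEAP1, 0.76 for PTGS2, 0.62 for CALD1 and 0.52 for GRO-A. Over the 7 operated arrays alone, r was 0.89 for PTGS2 and 0.34 for STEAP1, and for HAS2 it was -0.17. The probes of a gene did not always follow together. The 3 PTGS2 probes ranged from 0.50 to 0.88, the 5 GRO-A probes from 0.37 to 0.89 the 5 SCNN1B probes from 0.25 to 0.83 and the 7 JPH1 probes from -0.03 to 0.81.

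The genes that ran most opposite to INMT were PDPR (a regulator of pyruvate dehydrogenase phosphatase, r = -0.89), THEMIS2 (a signalling protein of B cells and macrophages, -0.89), SHMT1 (-0.86), GDF9 (a growth factor of the oocyte, -0.84) and GHSR (the ghrelin receptor, -0.83). THEMIS2 was 7.34, 4.78, 7.37 and 7.46 on the Control arrays 1 to 4, and Control replicate 2 lay with the operated rabbits, which ranged from 4.05 to 5.80. SHMT1 kept an r of -0.80 without the 2 farthest arrays and -0.80 over the 7 operated arrays. GHSR had -0.83 and -0.22 under the same changes, and its 3 probes ranged from -0.83 to 0.34 over the 11 arrays.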

How the data were processed

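Aortic RNA of 12 rabbits was hybridized to 1-colour Agilent arrays. The authors used Agilent Feature Extraction 11.0.1.1 and deposited its files, in which the processed signal is an intensity with background subtracted within each array and no normalization between arrays, along with median intensities and spot flags. These were put on the log2 scale from the deposited intensity and quantile normalized over 12 arrays. Outlier-flagged spots were left out and spots of a probe averaged. A probe was detected where most of its spots were positive, significant and well above background, and 27282 probes (62.6%) detected on at least 8 of 12 arrays were fitted in limma 3.58.1 (R 4.3.3) over 11 arrays in 3 groups, two-sided, with Benjamini-Hochberg adjustment over all probes. Corrected replicate 3 was left out, as in the study's methods. A gene was represented by its brightest probe. Symbols came from the RefSeq table of assembly mOryCun1.1 by accession.

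The number of arrays limits the precision. Each array was taken to hold the ring of 1 rabbit. Same-numbered arrays did not deviate together (r from -0.44 to 0.45 over 10 pairs, 2 of them above 0.1). INMT and the gene lists were chosen with earlier results of these data known. Named genes were INMT, NNMT, PNMT, related genes past 2-fold with an unadjusted p under 0.05, the 10 symbols with the highest and the 5 with the lowest r with INMT, and the 5 with the highest r within groups, of which 1 is not reported here. Any further gene was named with its values in view.

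Alternatives were other arrays, array weights, normalizations, background correction by normexp (offset 50), detection filters, blocks for replicate number and slide (statmod 1.5.0), and each array left out. Leaving out the 2 dimmest arrays and using signals without normalization between arrays were chosen after seeing the data. The fit was tested on simulated data. Tables were made with pandas 2.3.3 and numpy 2.4.6 in Python 3.11.15, and plots with matplotlib 3.10.9. No sequences of INMT were used here.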

Additional observations from a re-analysis of the deposited data

Results flagged for a closer look

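Control replicate 2 stood apart from the other 3 Control arrays for 3 of the 19 named genes examined. It was the highest Control array for PSMG1 (12.81) and NLK (8.40) and the lowest for THEMIS2 (4.78), each with a gap to the nearest array that took a larger part of the group's range than Dixon's critical value for 4 samples. It was also the Control array with the highest INMT signal. In all 38 groups of 4 arrays were examined, and chance flags about 1 in 20 groups. The genes were picked for following INMT, so these flags are not independent of each other.

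Corrected replicate 3, the array excluded as an outlier, had an INMT signal of 15.04, above the highest Control array at 13.34.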

How the results depend on the processing

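INMT kept its direction in both comparisons with Control under all alternatives run, with 2.53 to 3.31 log2 units for CoA vs Control and 2.65 to 3.37 for Corrected vs Control. CoA vs Corrected ranged from -0.32 to 0.22. Means over several INMT probes and single other probes were not run, because INMT has 1 probe. A fixed block for slide could be fitted for Corrected vs Control only.

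The replicate block gave 2.84, 2.93 and -0.09 for INMT, and moved the related genes past 2-fold in Corrected vs Control to 0 and the probes in CoA vs Corrected to 1158 from 755. For CoA vs Control, probes past 2-fold numbered 2404, and became 5210 with array weights on all 12 arrays, 1020 with normexp, 3733 with no detection filter, 1278 with detection on all 12 arrays and 1566 with Control replicates 3 and 4 as 1 sample. For Corrected vs Control they numbered 1471, and became 2851 with all 12 arrays, 2663 with weights, 584 with normexp, 2428 with no filter, 786 with detection on all 12, 653 with a fixed slide block and 957 without the 2 dimmest arrays. For CoA vs Corrected they became 1163, 1142, 129, 1461 and 317 under the first 5 of these settings and 1206 with slide as a random block.

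The 2 related genes of CoA vs Control became 1 with all 12 arrays, with detection on all 12, with Control replicates 3 and 4 as 1 sample or without the 2 dimmest arrays, and 7 with array weights or when every probe was counted. The 1 of Corrected vs Control became 0 with all 12 arrays, a fixed slide block, Control replicates 3 and 4 as 1 sample or without the 2 dimmest arrays, 2 with weights and 6 counting every probe. The 0 of CoA vs Corrected became 1 with no filter and 2 counting every probe. With 1 array left out at a time, probes ranged from 1544 to 3533, 764 to 2404 and 642 to 1779 in the order above, and related genes from 1 to 5, 0 to 3 and 0 to 0. SHMT1 in CoA vs Corrected was -0.38 and turned to 0.09 without CoA replicate 1 and 0.39 without Corrected replicate 1, and was as low as -0.84 without Corrected replicate 4. Of the 10 genes most like INMT, 4 to 8 remained with 1 array left out and 4 without the 2 dimmest arrays. Adjusted calls over all probes, 0 in each comparison, became 11050 with array weights, 869 with slide as a random block, 21 without Control replicate 2 and 1 with no filter in CoA vs Control, and were 0 or 1 under the other alternatives run there and under all those run in the other comparisons. The causes were not tested.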
